A study of Mus musculus with 15 samples.

Results

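The genes of 9 enzymes or enzyme subunits of the tricarboxylic acid cycle were described in mouse liver across 3 diets. They were Cs, Idh1, Idh2, Idh3a, Ogdh, Suclg1, Suclg2, Fh1 and Mdh2, chosen by name as citrate cycle enzymes outside complex II. The rule uses no measured value, but the set was proposed with earlier results of these data known. They are 9 of 25731 genes to which a transcript of the deposited tables could be assigned, and all 9 passed the filter on low counts, which left 13967 genes to test. Liver RNA-seq libraries came from C57BL/6 mice kept for 3 days on a ketogenic diet, on a high-fat diet or on chow, with 5 libraries per diet. The mice on the ketogenic and the high-fat diet were 12 weeks old, and the age of the chow mice was not given in the sources used here. All libraries shared the strain and the tissue, no transgene or drug was named, and the composition of the diets was not given in the sources used here. Nothing in the labels says that each library came from a separate animal, so p-values measure the spread between these samples, which may in part be technical.

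The cycle runs in the mitochondrial matrix, where citrate synthase joins acetyl-CoA to oxaloacetate and later steps oxidise the product back to oxaloacetate, yielding NADH, reduced ubiquinone and a nucleoside triphosphate. In liver its intermediates also leave for fatty acid and glucose synthesis, and fasting or a diet poor in carbohydrate supplies more acetyl-CoA from fat. Not every member belongs to the turning cycle. Idh3a encodes the catalytic subunit of the NAD-dependent isocitrate dehydrogenase of the cycle, whereas Idh2 is an NADP-dependent enzyme of the matrix and Idh1 its counterpart in cytosol and peroxisomes.

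In the GENCODE M21 annotation of GRCm38 all members were protein-coding. Cs (ENSMUSG00000005683.8) lay at chr10:128337734-128362479, Ogdh (ENSMUSG00000020456.17) at chr11:6291633-6356642 and Mdh2 (ENSMUSG00000019179.10) at chr5:135778480-135790398. The isocitrate dehydrogenase genes lay on 3 chromosomes, Idh1 (ENSMUSG00000025950.16) at chr1:65158616-65186500, Idh2 (ENSMUSG00000030541.16) at chr7:80094846-80115392 and Idh3a (ENSMUSG00000032279.11) at chr9:54586334-54604661. The succinate-CoA ligase genes shared chromosome 6, with Suclg1 (ENSMUSG00000052738.14) at chr6:73248382-73276911 and Suclg2 (ENSMUSG00000061838.7) at chr6:95473009-95718800. Fh1 (ENSMUSG00000026526.14) lay at chr1:175600374-175625635 and overlapped in part with Kmo (chr1:175620381-175662116) on the opposite strand, with 0 exon bases in common.

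Upstream sequence is shown for 4 members, namely the pair of ligase subunits that moved together, the gene with the largest change and the gene that moved the opposite way. RefSeq windows of 250 bases before the transcription start (build GRCm38.p6) were found for 8 of the 9 members, in 14 windows, since Idh1 and Ogdh have more than 1 start. Bases that GENCODE places inside a gene were left out, 42 for Idh2 and 123 for Suclg1. The stretches are chr6:73248255-73248381 on the plus strand for Suclg1, chr6:95718847-95719096 on the minus strand for Suclg2, chr7:80115393-80115600 on the minus strand for Idh2 and chr10:128337477-128337726 on the plus strand for Cs. Capitals mark GGGCGG, a GC box, and CCAAT, each on either strand.
Suclg1: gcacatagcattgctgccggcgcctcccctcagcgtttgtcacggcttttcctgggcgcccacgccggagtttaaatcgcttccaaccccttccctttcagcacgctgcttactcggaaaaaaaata
Suclg2: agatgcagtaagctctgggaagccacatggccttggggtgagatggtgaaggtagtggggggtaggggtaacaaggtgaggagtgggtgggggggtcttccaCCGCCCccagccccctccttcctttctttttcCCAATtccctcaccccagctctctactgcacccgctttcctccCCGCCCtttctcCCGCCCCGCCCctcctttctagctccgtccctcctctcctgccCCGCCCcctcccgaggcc
Idh2: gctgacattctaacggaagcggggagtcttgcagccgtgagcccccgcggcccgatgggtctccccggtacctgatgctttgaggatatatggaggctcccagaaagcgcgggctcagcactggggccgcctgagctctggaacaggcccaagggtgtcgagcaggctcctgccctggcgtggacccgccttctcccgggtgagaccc
Cs: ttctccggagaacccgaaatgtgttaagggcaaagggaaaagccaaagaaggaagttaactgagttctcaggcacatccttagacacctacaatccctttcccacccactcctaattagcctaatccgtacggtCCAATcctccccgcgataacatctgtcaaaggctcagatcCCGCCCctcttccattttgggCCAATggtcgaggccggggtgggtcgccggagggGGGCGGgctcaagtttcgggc

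The pair that changed most alike differed in these letters. The Suclg2 stretch held GGGCGG 5 times, 2 of them overlapping by 1 base, and CCAAT 1 time, while the printed stretch and the full window of Suclg1 held neither. The full window of Idh2 held GGGCGG 2 times and CCAAT 1 time, all within the 42 bases left out, and that of Cs held each 2 times. GGGCGG stood in 32.7% and CCAAT in 33.9% of all 32851 RefSeq windows of this length. A further 3 words were searched on both strands. CACGTG, found in 6.02% of all windows, occurred in 3 of the 6 Ogdh windows. Of these, chr11:6292308-6292557 and chr11:6292329-6292578 overlap, so the same letters may be counted in both. AGGTCA, found in 14.0%, occurred in the Fh1 window, and CCGGAAG, found in 6.91%, occurred in none of the 14. A match is a description of the letters and not a binding site.

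Libraries held between 30121672 and 50914494 estimated counts. Members drew between 927 counts (Idh3a in a chow library) and 27131 (Idh1 in a ketogenic library). How much of the spread between libraries was counting error was not tested. Counting error weighs most for Idh3a, the member with the fewest counts. Hepatocyte markers dominated all libraries, with a summed level of 68574 to 93075 CPM (counts scaled to a common library size with TMM factors) for 9 genes, none at 0. On the ketogenic diet against chow, 14.6% of all genes were called lower. Among markers of other cells, 6 of 6 tested erythroid genes and 6 of 7 B and plasma cell genes fell in that comparison. Their summed levels were 338 to 555 against 735 to 1077 CPM for erythroid genes and 3.14 to 4.15 against 5.83 to 16.2 CPM for B and plasma cells. Of 8 Kupffer cell genes, edgeR called 0, with 1 at an unadjusted p under 0.05 and 1 called higher by DESeq2. Their part in the results was not tested. In bulk tissue, fewer cells of a type and less RNA per cell cannot be told apart.

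The ketogenic diet was compared with chow to ask how the cycle's transcripts stood in liver after a short ketogenic period. Of the 9 members, 5 rose (Idh2, Suclg1, Suclg2, Idh3a and Fh1), where 16.2% of all tested genes were called higher, and 1 fell (Cs), where 14.6% were called lower. Idh1, Ogdh and Mdh2 did not pass. A call is an adjusted p under 0.05 from edgeR's quasi-likelihood test with Benjamini-Hochberg adjustment over 13967 genes, fitted to all 15 libraries, and every adjusted p of a gene comes from it. The 5 higher calls held under all 17 alternatives each. The median log2 fold change was 0.25 over the members and -0.01 over all genes tested. Summed over the members, the level was 1866 to 1955 CPM in ketogenic, 1426 to 1652 in high-fat and 1498 to 1774 in chow libraries.

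**Figure D1:**
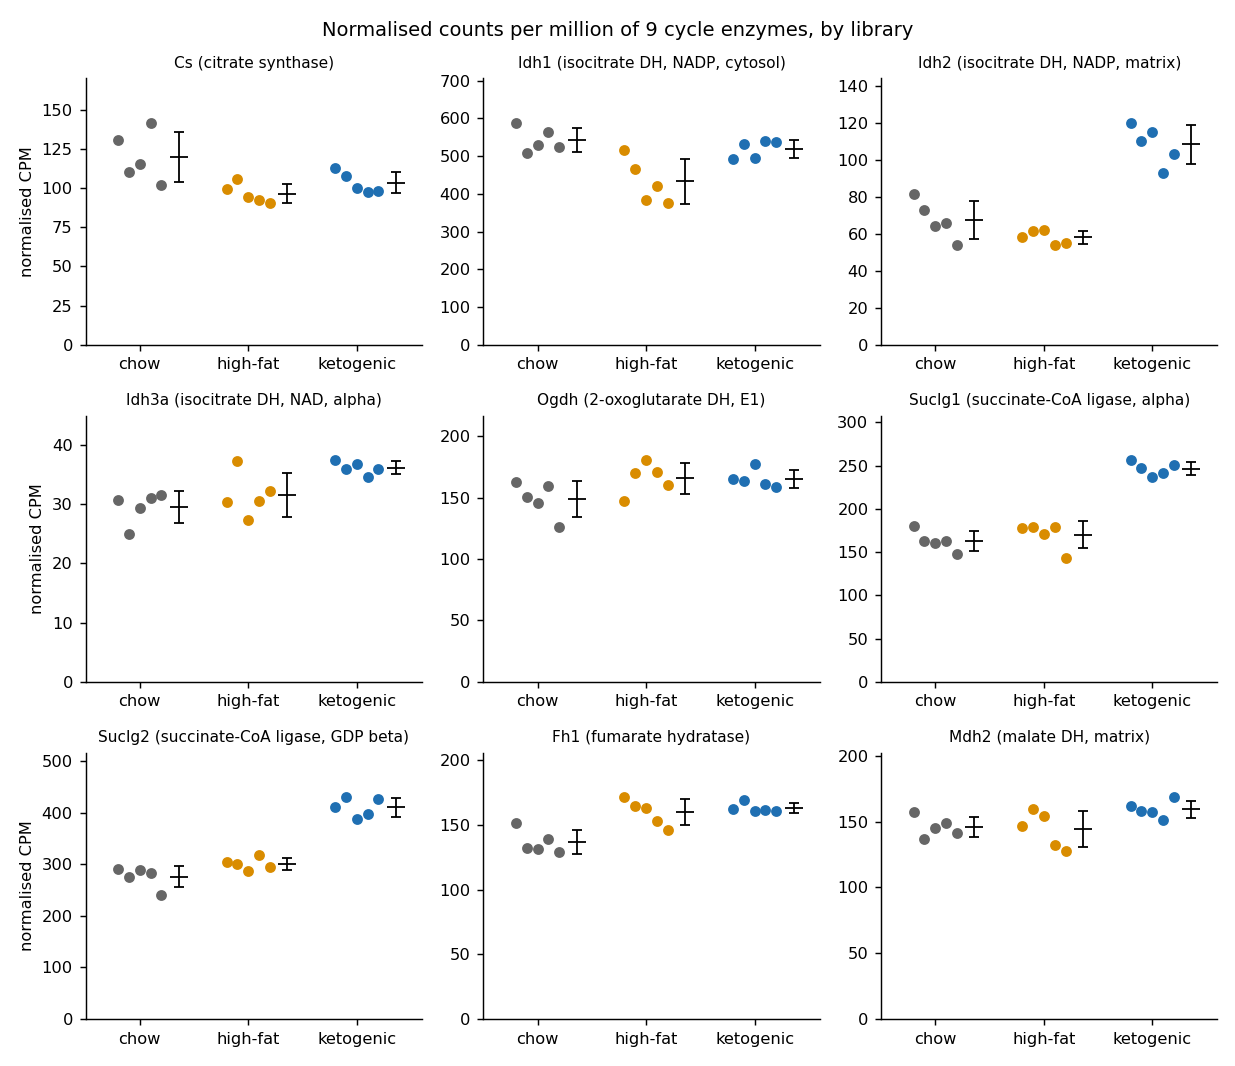
Normalised CPM (vertical axes, from 0) of each member by diet; each point is a library in the order of its label number, and the bar beside each diet gives the mean and SD of 5 libraries. All 5 ketogenic libraries lie above all others for Idh2, Suclg1 and Suclg2, while Cs is highest in the chow libraries on average.

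Cs encodes citrate synthase, which feeds acetyl-CoA into the cycle. Its normalised level was 131, 110.1, 115, 142 and 102 CPM in the chow libraries, 99.3, 106, 94.7, 92.4 and 90.8 in the high-fat libraries and 113, 108, 100.3, 97.6 and 98.3 in the ketogenic libraries. Chow held the highest values and spread most (SD 16.0 around a mean of 120.1, n = 5), and its lowest library lay inside the ranges of both other diets. Cs was 0.21 ± 0.079 (SE) lower on the log2 scale in ketogenic than in chow liver (log2 fold change -0.21, adjusted p = 0.0459). That call was lost under 10 of 17 other settings, among them total-count scaling (log2 fold change -0.14, adjusted p = 0.230), with adjusted p values from 0.0133 to 0.230 over all of them. It was lost without chow library 15 (adjusted p = 0.114), 17 (0.0540) or 18 (0.147) and without ketogenic library 3 (0.0579), 4 (0.0910), 6 (0.0963) or 8 (0.0975). On the high-fat diet the log2 fold change of Cs was -0.31 (SE 0.079, adjusted p = 0.0116), and that call held under all 17 alternatives. Ketogenic and high-fat livers could not be separated for Cs (difference 0.10, 95% interval -0.07 to 0.27, adjusted p = 0.383).

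Csl, a gene close in sequence to Cs, shared 249 of the 5749 31-base words of Cs transcripts (4.33%), so reads from those stretches could be assigned to either gene. Csl stood at 0.02 to 0.03 CPM on average in each diet. Sequence shared with any other gene was 1.96% of the words for Suclg1, 0.595% for Suclg2, 0.615% for Fh1, 0.333% for Mdh2, and 0 for Idh1, Idh2, Idh3a and Ogdh.

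Of the isocitrate dehydrogenases, Idh2, the matrix enzyme that yields NADPH, had 81.4, 73.2, 64.0, 66.1 and 53.9 CPM in chow, 58.6, 61.3, 62.0, 54.0 and 54.8 in high-fat and 120.2, 110.3, 115, 93.2 and 103 in ketogenic libraries. Every ketogenic library exceeded every library of the other diets. Idh2 rose 1.60-fold on the ketogenic diet against chow (log2 fold change 0.68 ± 0.091 SE, adjusted p = 1.91e-05) and stood 1.86-fold above the high-fat diet (0.90 ± 0.092, adjusted p = 1.8e-06). High-fat against chow gave -0.22 ± 0.092 and did not pass (adjusted p = 0.111, 95% interval -0.41 to -0.03); without chow library 19, the lowest chow library, it passed at -0.29 (adjusted p = 0.0258).

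Idh3a, the catalytic subunit of the cycle's own NAD-dependent enzyme, was the least expressed member. It had 30.7, 24.9, 29.4, 31.02 and 31.6 CPM in chow, 30.3, 37.3, 27.3, 30.5 and 32.2 in high-fat and 37.4, 35.96, 36.7, 34.5 and 35.9 in ketogenic libraries. The ketogenic libraries all lay above the chow libraries, and high-fat library 10 lay among the ketogenic ones. Idh3a rose 1.22-fold against chow (log2 fold change 0.29 ± 0.076, adjusted p = 0.00694). Against high-fat it was 0.20 ± 0.076 and did not pass (adjusted p = 0.0652), though it passed without high-fat library 10 (0.26, adjusted p = 0.0127) and under total-count scaling (0.26, adjusted p = 0.0315).

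Idh1, which makes NADPH in cytosol and peroxisomes, was the most abundant member. Its levels were 588, 509, 529, 564 and 525 CPM in chow, 516, 467, 384, 422 and 375 in high-fat and 494, 532, 495, 539 and 536 in ketogenic libraries. High-fat was the low diet here, with library 9 alone reaching the chow range. The log2 value of Idh1 fell by 0.33 on the high-fat diet against chow (SE 0.081, adjusted p = 0.0106), and it was 0.26 ± 0.081 higher in ketogenic than in high-fat liver (adjusted p = 0.0230). The second call was lost without ketogenic library 3 (adjusted p = 0.0504), high-fat library 11 (0.0703) or high-fat library 14 (0.0598). Ketogenic against chow gave -0.06 with a 95% interval of -0.23 to 0.10 (adjusted p = 0.592), and total-count scaling put it at 0.01.

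Ogdh encodes the first component of the 2-oxoglutarate dehydrogenase complex, which makes succinyl-CoA. Its levels were 163, 151, 146, 159.6 and 126 CPM in chow, 147, 170.0, 181, 171 and 160.1 in high-fat and 165, 163, 177, 161 and 159 in ketogenic libraries. The ranges overlapped in every pair of diets. The log2 fold change against chow was 0.15 ± 0.071 for the ketogenic (adjusted p = 0.125) and 0.16 ± 0.071 for the high-fat diet (adjusted p = 0.147). Under total-count scaling the ketogenic comparison passed (0.22, adjusted p = 0.0473). Between the fat-rich diets the difference was -0.01, with a 95% interval of -0.16 to 0.14 (adjusted p = 0.952) and a sign that changed with the setting.

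Succinate-CoA ligase turns succinyl-CoA into succinate with formation of GTP or ATP. Suclg1 encodes the alpha subunit that both forms share and Suclg2 the beta subunit of the GTP-forming enzyme. Suclg1 stood at 180.5, 163, 160.0, 163 and 148 CPM in chow, 178, 179, 171, 179 and 143 in high-fat and 256, 247, 237, 242 and 250.4 in ketogenic libraries. Suclg2 stood at 291, 275, 289, 284 and 241 CPM in chow, 304, 301, 288, 319 and 295 in high-fat and 411, 431, 387, 398 and 426 in ketogenic libraries. For both genes the lowest ketogenic library lay well above the highest library of any other diet.

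Both ligase genes rose on the ketogenic diet. Suclg1 was 1.51-fold above chow (log2 fold change 0.60 ± 0.068, adjusted p = 3.12e-06) and Suclg2 1.49-fold (0.57 ± 0.062, adjusted p = 1.62e-06). Against the high-fat diet, Suclg1 differed by 0.54 ± 0.068 (adjusted p = 1.91e-05) and Suclg2 by 0.45 ± 0.062 (adjusted p = 4.65e-05). High-fat against chow passed for neither, with a 95% interval of -0.08 to 0.20 for Suclg1 (adjusted p = 0.586) and an estimate of 0.13 ± 0.062 for Suclg2 (adjusted p = 0.169). Their profiles were the closest of all 36 pairs of members. Centred on their own means over 15 libraries, they differed by a root mean square of 0.09 on the log2 scale, against 0.42 for Cs and Idh2, the farthest pair.

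Fh1 encodes fumarate hydratase, which adds water to fumarate to give malate. It had 152, 133, 132, 139 and 129 CPM in chow, 172, 165, 164, 153 and 146 in high-fat and 162, 169.7, 161, 162 and 161 in ketogenic libraries. Fh1 was the sole member that rose on both diets. Against chow the log2 fold change was 0.25 ± 0.058 for the ketogenic diet (adjusted p = 0.00272), with no overlap between libraries, and 0.22 ± 0.058 for the high-fat diet (adjusted p = 0.0144), where chow library 15 reached into the high-fat range. Between these diets Fh1 differed by 0.03, with a 95% interval of -0.09 to 0.15 (adjusted p = 0.747).

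Mdh2, the matrix malate dehydrogenase that regenerates oxaloacetate, closed the cycle with little movement. It had 157, 136, 145, 149 and 141 CPM in chow, 147, 159, 155, 132 and 128 in high-fat and 162, 158, 157, 151 and 169 in ketogenic libraries, and the ranges overlapped in every pair of diets. The log2 fold change was 0.13 ± 0.065 for ketogenic against chow (adjusted p = 0.152), -0.02 ± 0.065 for high-fat against chow (adjusted p = 0.890) and 0.15 ± 0.065 for ketogenic against high-fat (adjusted p = 0.108). Total-count scaling brought the first and the last past the threshold (0.20, adjusted p = 0.00975, and 0.21, adjusted p = 0.00854).

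The high-fat diet was set against chow as the second fat-rich diet. In that comparison 1 member rose (Fh1), where 8.3% of all genes were called higher, and 2 fell (Cs and Idh1), where 7.32% were called lower. The other 6 did not pass, and the median over the members was 0.06, beside 0.01 over all genes. Between the ketogenic and the high-fat diet, 4 members were higher on the ketogenic diet (Idh1, Idh2, Suclg1 and Suclg2), where 13.1% of all genes were, and 0 were lower, where 13% of all genes were. edgeR's unadjusted p was under 0.05 for 0 members in the lower direction, and DESeq2 also called 0. The median of that comparison was 0.20 over the members and -0.02 over all genes. The 3 comparisons share libraries, so they are not independent of each other.

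**Figure D2:**
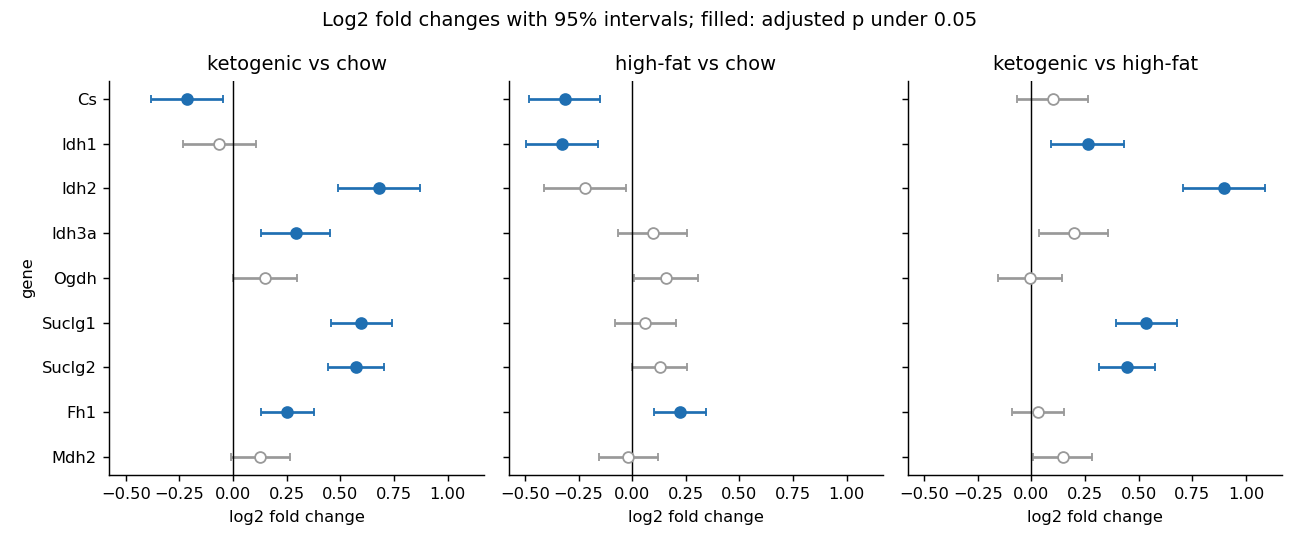
Log2 fold change (horizontal axes) of each member in the 3 comparisons, with 95% intervals from the edgeR fit; filled points have an adjusted p under 0.05. Suclg1 and Suclg2 sit at 0.60 and 0.57 against chow on the ketogenic diet and at 0.06 and 0.13 on the high-fat diet.

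Library scaling bears on all of these directions. With total counts in place of TMM factors, the share of called genes that were higher moved from 52.6% to 68.5% for ketogenic against chow (2753 higher, 1265 lower) and from 50.1% to 70.6% for ketogenic against high-fat (2305 higher, 960 lower), and from 53.1% to 48.2% for high-fat against chow. Members called higher then numbered 7 for ketogenic against chow and 6 for ketogenic against high-fat.

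Levels of different members were compared as TPM, which scales each transcript's share of the library and divides by length. TPM is used here to order members within a diet and for ratios within a library, which are also set side by side across diets. It rests on the deposited effective lengths, which exceeded the transcript's own length for 20.4 to 39.2% of transcripts per library, so the order and the ratios carry that doubt. In chow the order was Idh1 (262 ± 27.6 TPM, SD, n = 5), Suclg1 (143 ± 11.1), Mdh2 (143 ± 12.4), Fh1 (140.2 ± 11.5), Suclg2 (127 ± 22.5), Idh2 (47.1 ± 8.83), Cs (42.6 ± 8.17), Ogdh (39.2 ± 6.25) and Idh3a (16.8 ± 1.53). Idh1 led and Idh3a trailed in every library of all 3 diets, without overlap with the neighbour by mean level. In high-fat liver the range of Idh1 (from 179 TPM) did overlap that of Suclg1 (up to 191 TPM), which ranked further down. The 4 genes from Suclg1 to Suclg2 overlapped with their neighbours, as did Idh2 with Cs and Cs with Ogdh. A gene's TPM was summed over all its transcripts, coding or not. In chow libraries Fh1-201 had 29.7 to 42.6 TPM and the 542-base Fh1-205 had 80.0 to 93.2. The coding Mdh2-201 had 30.7 to 50.7 TPM, and Mdh2-203, annotated as subject to nonsense-mediated decay, had 87.1 to 107.6. The places of Fh1 and Mdh2 in the order therefore depend on which transcripts are counted.

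On the ketogenic diet the ligase pair moved up in that order. Suclg2 (261 ± 23.1 TPM) and Suclg1 (257 ± 14.4) came next after Idh1 without separating from each other, and Suclg1 lay above Fh1 (209 ± 12.2) in all libraries. Idh2, at 93.3 ± 15.0 TPM, lay above Ogdh (53.8 ± 5.1) without overlap, whereas their ranges overlapped in high-fat liver. In high-fat liver Ogdh (43.7 ± 8.51), Idh2 (39.9 ± 5.37) and Cs (34.0 ± 4.13) overlapped with their neighbours.

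**Figure D3:**
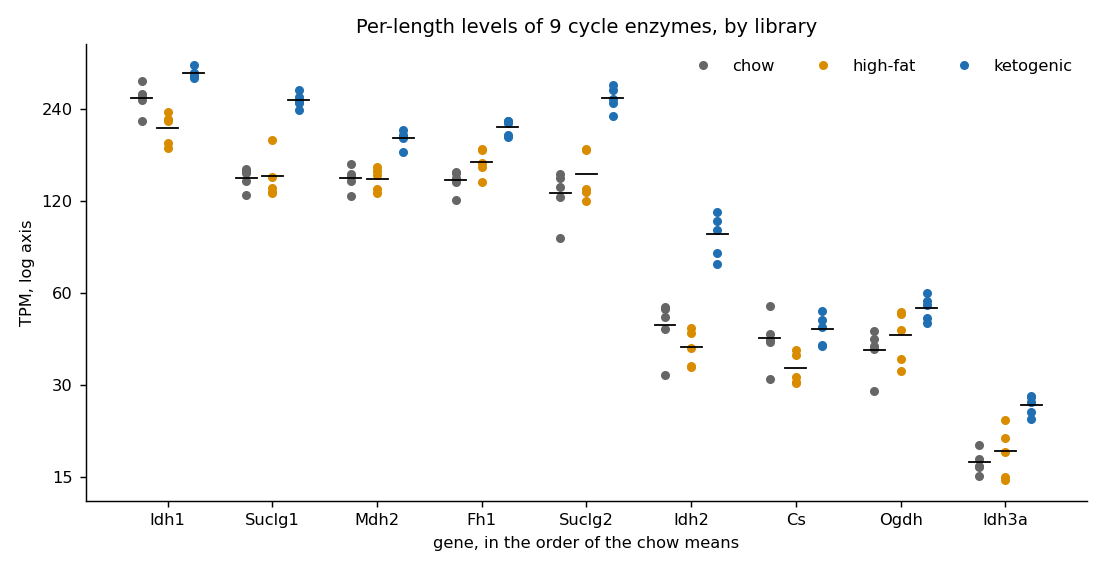
TPM (log axis) of each member in each library, ordered by the chow mean; short lines are the means of 5 libraries. Idh1 is highest and Idh3a lowest in each diet.

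Ratios within a library put the subunits side by side. Suclg1 per Suclg2 on the TPM scale was 1.146 ± 0.150 in chow, 0.991 ± 0.104 in high-fat and 0.990 ± 0.0469 in ketogenic libraries, with overlapping ranges. Sucla2, the beta subunit of the ATP-forming ligase, stood at 0.652 ± 0.0363 of Suclg2 in chow, 0.625 ± 0.0377 in high-fat and 0.529 ± 0.0136 in ketogenic libraries, and the highest ketogenic ratio, 0.548, lay under the lowest chow ratio, 0.629, and the lowest high-fat ratio, 0.577. Idh2 per Idh3a was 2.82 ± 0.613 in chow, 2.22 ± 0.318 in high-fat and 3.59 ± 0.315 in ketogenic libraries. The Suclg2 level in these ratios includes Suclg2-202, a non-coding transcript. It had 43.7 to 67.7 TPM in ketogenic, 21.3 to 34.7 in high-fat and 6.21 to 24.7 in chow libraries. Ratios to the coding transcripts of Suclg2 alone were not computed. All these ratios were described after their values were seen and were not tested.

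The deposited tables assign reads to transcripts, and members differed in how those reads were divided. Cs-201, Idh2-201, Ogdh-201 and Idh1-201 took nearly all reads of their genes, for example 94.9 to 99.9% for Idh1-201. Mdh2 and Idh3a were different, since most of their reads were assigned to transcripts that the annotation does not class as protein-coding. Mdh2-203, annotated as subject to nonsense-mediated decay, took 61.2% ± 5.43 of Mdh2 reads in chow, 62.6% ± 2.10 in high-fat and 62.5% ± 3.33 in ketogenic libraries. Protein-coding transcripts of Idh3a together took 38.5% ± 5.31, 36.1% ± 3.21 and 37.7% ± 3.40 in these diets, while Idh3a-203, which retains an intron, took 36.7% ± 5.92, 36.1% ± 8.07 and 31.9% ± 6.60. How much of this division rests on reads shared between transcripts was not tested.

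Shares were compared between diets for 12 transcripts of 5 members, each with at least 5% of its gene's reads, by a two-sided exact permutation test that can go no lower than p = 0.00794. Of 36 tests, 0 passed Benjamini-Hochberg adjustment over the 36, and 4 had an unadjusted p under 0.05. With shares of TPM, or with a minimum of 1% in place of 5%, 0 passed as well. In none of the 36 tests did the libraries of both diets separate. With 5 libraries per diet, a single test at the smallest p could not pass the adjustment. Among the 66 tests with the 1% minimum, 3 had libraries that did not overlap, at the smallest p (0.00794, exact permutation test, adjusted p = 0.116). Suclg2-202, a non-coding transcript, took 4.15 to 5.36% of Suclg2 reads in ketogenic and 1.31 to 3.57% in chow libraries. Suclg1-203, which retains an intron, took 0.732 to 0.989% of Suclg1 reads in ketogenic, 1.32 to 2.30% in chow and 1.66 to 2.27% in high-fat libraries. The largest share of Suclg1, that of Suclg1-201, was 93.1% ± 0.822 in ketogenic, 90.8% ± 1.82 in high-fat and 89.4% ± 3.33 in chow libraries, with exact permutation p = 0.0159 against high-fat and 0.0238 against chow (adjusted p = 0.286 for both). Fh1-205, a short coding transcript of 542 bases, took 24.0% ± 1.64 in chow and 22.0% ± 0.660 in high-fat libraries (exact permutation p = 0.0159, adjusted p = 0.286).

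**Figure D4:**
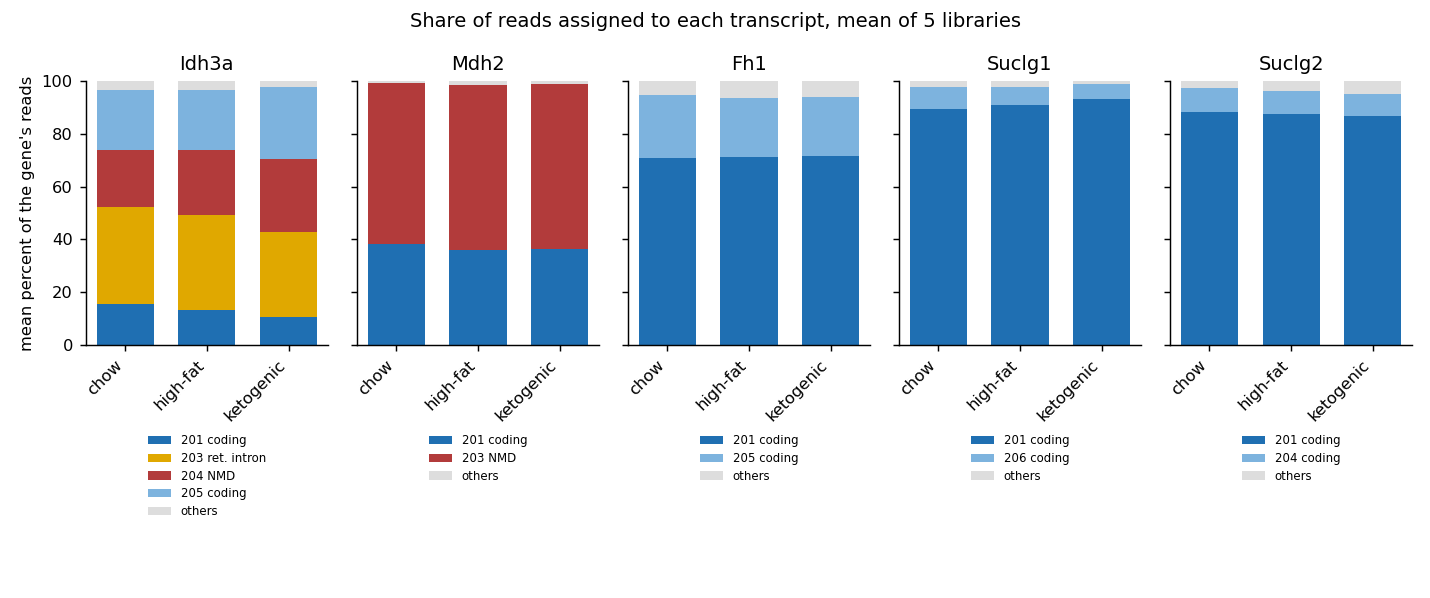
Mean percent of a gene's reads (stacked bars, from 0) assigned to each tested transcript of 5 members by diet, n = 5 libraries each; NMD marks nonsense-mediated decay and ret. intron a retained intron. Mdh2-203 stands at 61.2 to 62.6% and Suclg1-201 at 89.4 to 93.1% over the 3 diets, and no test of these shares passed adjustment.

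A list of 5 further subunits of matrix cycle enzymes rose on the ketogenic diet. All 5 rose against chow, where 16.2% of all genes were called higher. All 5 were also higher than on the high-fat diet, where 13.1% of all genes were. In high-fat against chow 0 of 5 passed by edgeR, where 1 had an unadjusted p under 0.05 and DESeq2 called 0. Against chow, Sucla2 rose by 0.37 ± 0.058 on the log2 scale (adjusted p = 7.86e-05), from 134 ± 7.96 to 174 ± 5.76 CPM, Dlst and Dld of the 2-oxoglutarate dehydrogenase complex by 0.33 and 0.32, and the regulatory subunits Idh3b and Idh3g of the NAD-dependent isocitrate dehydrogenase by 0.31 and 0.26. The call of Dlst against the high-fat diet was lost without ketogenic library 3 (adjusted p = 0.0533). None of the 5 genes had ketogenic libraries that overlapped with chow. The share of all genes that separated in this way was not computed. The list had a median of 0.32, beside 0.25 for the members.

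Complex II, which oxidises succinate between the ligase and fumarate hydratase steps, had shares of calls near those of all genes (16.2% higher, 14.6% lower). Of 8 subunits and assembly factors, 2 rose on the ketogenic diet against chow (Sdha by 0.20 ± 0.064, adjusted p = 0.0241, and Sdhaf2), 1 fell (Sdhaf3) and 5 did not pass. Sdha lost its call without ketogenic library 6 (adjusted p = 0.0519) or 8 (0.0584), without chow library 19 (0.0587) and with the effective-length offset (0.192). Sdhaf2 lost it without ketogenic library 3, 4, 6 or 8 or chow library 15, 16, 17 or 18 (adjusted p up to 0.0821), and Sdhaf3 without any single ketogenic library or chow library 15, 17 or 19 (up to 0.115). With no filter (0.0540) or the stricter filter (0.0518) Sdhaf2 lost its call as well. Sdhaf3 also lost its call with total-count scaling (0.200), no filter (0.0957) and the length offset (0.0608). Sdhb gave 0.12, Sdhc 0.15 and Sdhd -0.01. Against high-fat, Sdhc (0.19) and Sdhd (0.22) were higher on the ketogenic diet, and Sdhd fell by 0.23 on the high-fat diet against chow (adjusted p = 0.0421). The Sdhd fall was lost without high-fat library 11, 12 or 14 or any single chow library (adjusted p up to 0.122). It was also lost with no filter (0.0509) and with only the 2 diets fitted (0.0668). Against high-fat, Sdhd lost its call without ketogenic library 2, 3, 6 or 8 or high-fat library 11, 12 or 14 (up to 0.0946), and Sdhc without ketogenic library 2 or 8 or high-fat library 12 or 14 (up to 0.0614). That call of Sdhc was also lost with the length offset (0.0589).

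A list of cytosolic forms and paralogs of cycle enzymes also held D2hgdh, which is neither. Of the 7 genes listed, 4 could be tested. Dhtkd1 and D2hgdh rose on the ketogenic and on the high-fat diet against chow, where 16.2% and 8.3% of all genes were called higher. Dhtkd1, a paralog of Ogdh that acts on 2-oxoadipate, rose by 0.46 on the ketogenic and by 0.57 on the high-fat diet, and D2hgdh, which oxidises 2-hydroxyglutarate, by 0.45 and 0.26. The high-fat call of D2hgdh was lost without high-fat library 11 (adjusted p = 0.0671) or chow library 17 (0.0524) or 19 (0.0516). It was also lost with the length offset (0.0771) and with only the 2 diets fitted (0.0555). Aco1 and Mdh1, the cytosolic aconitase and malate dehydrogenase, gave 0.11 and 0.18 on the ketogenic diet and did not pass. Csl, Mdh1b and Ogdhl were too low to test.

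Genes through which carbon enters and leaves the cycle moved in both directions. Of 14, 7 rose and 3 fell on the ketogenic diet, and 4 rose and 2 fell on the high-fat diet against chow. Among all genes, 16.2% were called higher and 14.6% lower on the ketogenic diet, and 8.3% and 7.32% on the high-fat diet. Pcx, pyruvate carboxylase, which makes oxaloacetate, rose by 0.85 ± 0.095 (adjusted p = 2.62e-06) on the ketogenic and by 0.33 ± 0.094 (adjusted p = 0.0261) on the high-fat diet, where the call was lost without high-fat library 11 (0.0662) or 12 (0.0586). The high-fat call of Pcx was also lost with only the 2 diets fitted (0.0525). Mut, which delivers succinyl-CoA from propionate, rose by 0.52 and 0.34, and Got2, the mitochondrial aspartate aminotransferase, by 0.49 on the ketogenic diet. Acly and Me1, which use exported citrate and malate, fell on both diets. On the log2 scale Acly fell by 2.09 on the ketogenic and by 1.36 on the high-fat diet, and Me1 by 2.18 and 1.76. Gls2, the liver glutaminase, fell by 0.65 ± 0.090 on the ketogenic diet (adjusted p = 2.59e-05) and rose by 0.43 ± 0.089 on the high-fat diet (adjusted p = 0.00391).

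Of 8 carriers of cycle substrates across the inner mitochondrial membrane, 4 rose, 1 fell and 3 did not pass on the ketogenic diet, and on the high-fat diet 1 rose and 1 fell. The shares over all genes were 16.2% higher and 14.6% lower on the ketogenic diet, and 8.3% and 7.32% on the high-fat diet. Mpc1, a subunit of the pyruvate carrier, rose by 0.93 ± 0.070 (adjusted p = 2.37e-08) and Slc25a13, the aspartate-glutamate carrier of liver, by 0.59 ± 0.057 (adjusted p = 4.9e-07). Slc25a1, which exports citrate, fell by 0.49 on the ketogenic and by 0.28 on the high-fat diet, a call lost without high-fat library 11, 12 or 14 or chow library 15, 16 or 18 (adjusted p up to 0.106). Of the rises, that of Mpc2 on the ketogenic diet was lost under 10 of 17 alternatives (adjusted p up to 0.113, without chow library 18), and that of Slc25a13 on the high-fat diet without high-fat library 10 (0.0579) or 11 (0.0573) or chow library 19 (0.0501). That rise of Slc25a13 was also lost with no filter (0.0545) and with only the 2 diets fitted (0.0619). Slc13a5, a plasma membrane citrate carrier in the same list, drew 21 to 35 reads in ketogenic, 6 to 17 in high-fat and 3 to 12 in chow libraries. It passed the filter through its ketogenic libraries and is not counted among the rises.

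Idh2 works beside other sources of matrix NADPH and is deacetylated by Sirt3. Of the 5 genes in that list, Nnt, the transhydrogenase, rose by 0.75 ± 0.091 on the ketogenic diet (adjusted p = 6.04e-06). Sirt3 rose by 0.30 on the ketogenic and by 0.22 on the high-fat diet (adjusted p = 0.0186 for the latter). Sirt4 fell by 0.30 on the ketogenic and rose by 0.28 on the high-fat diet. The rise was lost without high-fat library 10, 11 or 12 or chow library 15, 16, 18 or 19 (adjusted p up to 0.119), and the fall with total-count scaling (0.0951) and with the effective-length offset (0.200). The rise of Sirt4 was also lost with total-count scaling (0.0674), no filter (0.0705), only the 2 diets fitted (0.0874) and the length offset (0.0637). Of 9 regulators of mitochondrial genes, 3 rose on the ketogenic diet against chow, where 16.2% of all genes were called higher. Ppara rose by 1.45 ± 0.118 (adjusted p = 1.7e-07) on the ketogenic and by 0.67 (adjusted p = 0.0015) on the high-fat diet. On the ketogenic diet Tfam rose by 0.24 and Tfb2m by 0.18, while Ppargc1a gave 0.55 ± 0.214 and did not pass (adjusted p = 0.0656). Ppargc1a passed under 5 of 17 alternatives, DESeq2 (adjusted p = 0.0209), total-count scaling (0.0340), the length offset (0.0407) and without ketogenic library 2 (0.0178) or chow library 17 (0.0316).

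Transcripts encoded in mitochondrial DNA were mostly lower on the ketogenic diet. Of 13, 8 fell on the ketogenic diet against chow and 0 rose by edgeR, with a median of -0.38. Among all genes, 14.6% were called lower and 16.2% higher. DESeq2 also called 8 lower and 0 higher, and 0 had an unadjusted p under 0.05 in the higher direction. In high-fat against chow edgeR called 0 of 13, with 2 at an unadjusted p under 0.05 and 2 called lower by DESeq2, and the median was -0.04. Against high-fat, 8 were lower and 2 higher on the ketogenic diet, where 13% and 13.1% of all genes were. Not all levels were lower on the ketogenic diet. Mean mt-Nd1 was 6921 CPM in ketogenic, 5641 in high-fat and 6226 in chow libraries, and mean mt-Nd2 was 10422, 8515.5 and 9556 CPM. mt-Cytb, a subunit of complex III, fell by 0.82 ± 0.093 on the log2 scale (adjusted p = 3.1e-06) and mt-Nd4, a subunit of complex I, by 0.59 ± 0.085 (adjusted p = 3.86e-05).

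**Figure D5:**
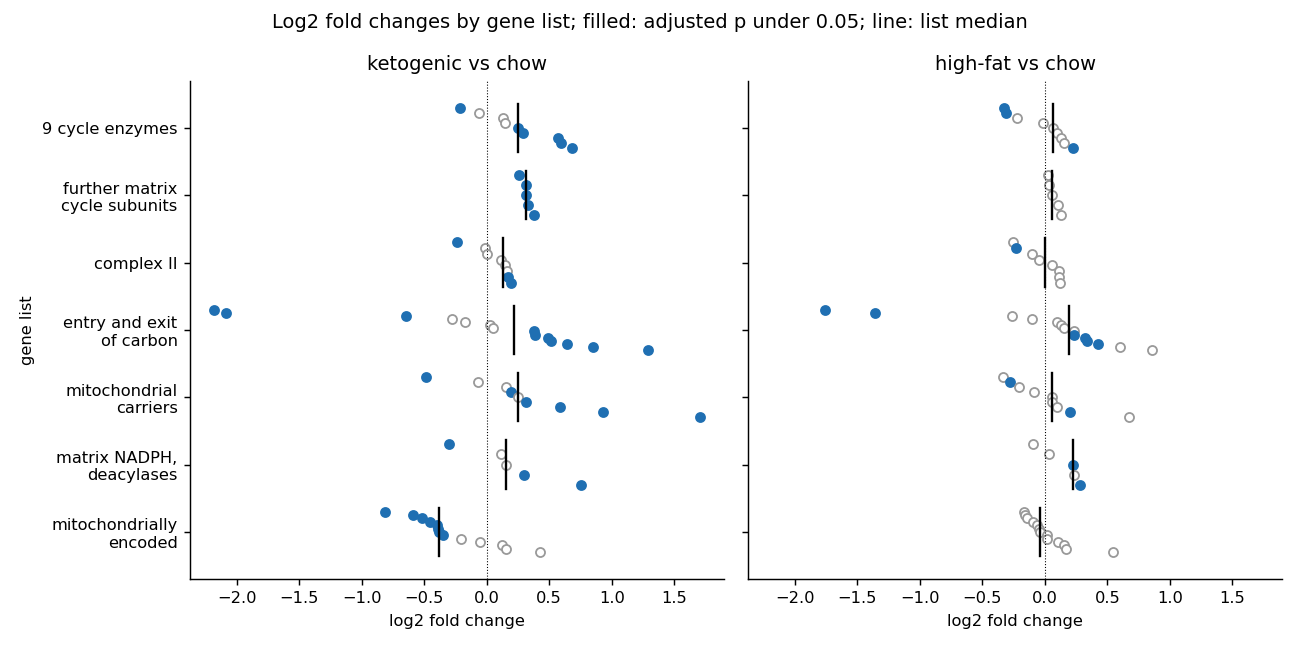
Log2 fold change (horizontal axes) of each tested gene in 7 lists for ketogenic and high-fat against chow; filled points have an adjusted p under 0.05 and vertical lines are list medians. On the ketogenic diet the medians are 0.25 for the 9 cycle enzymes, 0.32 for the further matrix cycle subunits and -0.38 for mitochondrially encoded genes.

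Markers of the zones of the liver lobule moved in the same libraries. Among all genes, 16.2% were called higher and 14.6% lower on the ketogenic diet against chow. Of 8 pericentral hepatocyte genes, 5 rose and 1 fell on the ketogenic diet against chow. Their summed levels were 13358 to 15394 against 7289.7 to 9018 CPM. Of 8 periportal genes 2 rose and 4 fell, with overlapping summed levels of 3813.4 to 6113.3 against 3410.5 to 6055.4 CPM. The periportal list included Gls2, given above among the genes through which carbon enters the cycle. Of 9 general hepatocyte genes, 3 fell and the other 6 did not pass. Their part in the members' changes was not tested.

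Genes with the profile most like each member were named by the smallest root mean square difference of centred log2 CPM over the 15 libraries, among 8588 genes. For Suclg1 these were Acads (0.07), an acyl-CoA dehydrogenase for short chains, and Nln (0.07). For Suclg2 they were Agmo (0.05) and the carrier Slc25a13 (0.06). For Idh2 they were Dhrs7 (0.11) and Hadha (0.13), the latter a subunit of the mitochondrial trifunctional protein of fatty acid oxidation. Mdh2 lay nearest to Ndufa10 (0.05) and Atxn10 (0.06), Fh1 to Trmt2b (0.06), and Idh3a to Agps (0.09) and Ado (0.09). Cs lay nearest to Tmx2 (0.08) and Umps (0.09), Idh1 to Rcbtb2 (0.07) and Farsb (0.07), and Ogdh to Man2c1 (0.06) and Fam83h (0.06). The libraries share their scaling and diet groups, so these are descriptions and carry no test.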

How the data were processed

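The tables deposited by the authors give, per the file headers, an estimated count and a TPM value for each of 106332 transcripts in each of 15 libraries. The submitters' processing notes name Trimmomatic 0.36, kallisto 0.44, edgeR 3.28 and GRCm38.p6, with no settings; the sources used here do not give the annotation release. Here 105734 transcripts were matched to GENCODE M21 (598 were not, and their 0.184 to 0.223% of reads was not used), and estimated counts were summed over 25731 genes and rounded. Genes passing filterByExpr (minimum count 10, total 15) entered edgeR 4.0.16 with TMM scaling and a robust quasi-likelihood fit, all libraries in 1 fit (12 residual degrees of freedom), threshold 0.05. The procedure was tested on simulated counts with known changes. In them every gene had the same biological spread, and about as many changes went up as down. How scaling behaves when changes are uneven was therefore not tested. Normalised CPM uses TMM library sizes. Replicates of a diet differed by more than sampling noise in every pair (chi-square per degree of freedom at least 18.4). Total counts per library ran from 30121672 to 50914494.

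Alternatives were RLE and total-count scaling, DESeq2 1.42.0, no filter, a stricter filter (50 reads in 5 libraries), a fit of only the diets compared, an effective-length offset from the deposited tables, and each library left out. Transcript shares used exact permutation tests. R 4.3.3, Python 3.11.15, pandas 2.3.3 and matplotlib 3.10.9 were used. The 9 members, the gene lists and the tests were chosen with earlier results of these data known. Values are given for all members, for up to 4 called genes of each pathway list per comparison by smallest adjusted p, for the listed cycle and complex II subunits whatever their p, for paralogs and overlapping genes, and for the 2 genes closest to each member in profile. A few genes that these rules would name are not reported here and were taken out of the lists and their counts. Leaving out libraries for the transcript shares was added after seeing the data. Upstream sequences are from RefSeq on GRCm38.p6.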

Additional observations from a re-analysis of the deposited data

Results flagged for a closer look

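Libraries that stood apart from the other 4 of their diet were sought in 180 groups of 5 values (normalised CPM of the named genes and read shares of the tested transcripts), and 14 groups had one. Chance gives about 1 in 20 groups. Of the members, Fh1 reached 169.7 CPM in ketogenic library 3, where the others lay between 161 and 162, and Suclg1 fell to 143 CPM in high-fat library 14, where the others lay between 171 and 179. Chow library 19 stood apart for 6 genes. It was lowest for Pcx (222 CPM, others 322 to 345), Gls2 (177, others 221 to 239), Slc25a13 (178, others 203 to 207), Dhtkd1 (44.2, others 56.7 to 61.7) and Sirt3 (44.4, others 52.2 to 55.0), and highest for Sdhaf2 (22.0 CPM, others 19.2 to 19.999). Sdhd was high in chow library 15 (192.5 CPM, others 163 to 166), Sdhaf2 in high-fat library 9 (23.8 CPM, others 19.7 to 20.7), and Slc25a1 was low in ketogenic library 3 (85.6 CPM, others 103 to 109). In high-fat library 12, Suclg2-201 took 85.1% of Suclg2 reads (others 87.7 to 88.6%) and Suclg2-204 took 10.7% (others 7.59 to 8.34%). In ketogenic library 8, Suclg2-204 took 9.24% (others 8.00 to 8.28%).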

How the results depend on the processing

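The 5 members that rose on the ketogenic diet against chow kept direction and call under all 17 alternatives each (largest adjusted p 0.0223, for Idh3a), as did Cs, Idh1 and Fh1 on the high-fat diet. The number of members lower on the ketogenic diet went from 1 (Cs) to 0 with total-count scaling, with no filter and with only the 2 diets fitted, and lay between 0 and 1 when a library was left out, with 0 in 7 of 10 cases. Of the other settings, total-count scaling changed the sign of Idh1 (0.00825) and Sdhd (0.0637) for ketogenic against chow and of Tfb2m for high-fat against chow (0.00739, and 0.127 with the effective-length offset). For ketogenic against high-fat, Ogdh was 0.0018 with RLE, 0.0552 with total counts, 0.0017 with DESeq2 and 0.00968 with no filter, Sdhb was -0.00524 with the stricter filter and Sdhaf3 -0.0376 with the length offset. With 1 library left out, log2 fold changes that changed sign ranged for ketogenic against chow Sdhd from -0.03052 to 0.03809; for high-fat against chow Mdh2 from -0.05647 to 0.0217, Idh3g from -0.001659 to 0.06556, Tfb2m from -0.01855 to 0.009257, mt-Nd4 from -0.01079 to 0.06555; for ketogenic against high-fat Ogdh from -0.04664 to 0.02578, Fh1 from -0.0006477 to 0.05638, Sdhb from -0.06273 to 0.08835, Sdhaf3 from -0.03734 to 0.07377. With shares of TPM, the difference in share was -0.116 percentage points for Idh3a-205 in high-fat against chow, and -0.0891 for Fh1-201 and 0.208 for Mdh2-203 in ketogenic against high-fat. With 1 library left out, an alternative added after seeing the data, differences in share ranged for ketogenic against chow Mdh2-203 from -0.2459 to 2.995; for high-fat against chow Idh3a-203 from -2.921 to 1.746, Idh3a-205 from -2.24 to 2.28, Suclg2-201 from -0.8746 to 0.07321, Mdh2-203 from -0.1467 to 3.094; for ketogenic against high-fat Idh3a-201 from -3.863 to 0.01489, Suclg2-204 from -0.3719 to 0.4069, Fh1-201 from -0.0707 to 0.4974, Fh1-205 from -0.2817 to 0.494, Mdh2-201 from -0.4001 to 1.307, Mdh2-203 from -0.8569 to 0.8696. None of the values that changed sign passed the test. Of 1494 values of called fold changes, 125 lost the call under an alternative, and of 950 values of those not called, 35 gained one. The cause of these changes was not tested. No paired analysis was possible because no library number recurs between diets. The 5 libraries per diet limit precision.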
